A study of Mus musculus with 9 samples.

Results

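Voltage-gated sodium and calcium channel subunit genes were compared between mouse astroglia and 2 groups of brain tumour cells that overexpressed Foxr2. The set was made of every gene whose symbol is Scn followed by a number and the letter a or b, or begins with Cacna, Cacnb or Cacng. The RefSeq gene table held 40 such symbols, and 23 of them had at least 1 row among the 14771 named genes of the expression table (24 rows, since Scn8a had 2). Of these 23, 8 reached 10 normalized reads in at least 3 libraries and were tested, among 10576 tested genes. They included the sodium channel gene Scn7a, the calcium channel genes Cacna1c, Cacna1e and Cacna2d3, and the Cacng genes Cacng4, Cacng7 and Cacng8. The 17 symbols with no row, which include Cacna1a, Cacna1g, Cacnb3, Cacnb4, Cacng2, Cacng5, Scn1a, Scn2a and Scn3a, were not analysed here.

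Libraries were made with a stranded TruSeq kit and read on a HiSeq3000. Astroglia (AG_1, AG_2 and AG_3) were C57BL/6 cells with the genotype label p53 DN, Nf1 shRNA. Tumour cells of the brainstem (BS_287, BS_295 and BS_296) and of the olfactory bulb (OB_257, OB_287 and OB_295) came from a 129;C57BL/6 mix and carried Foxr2 overexpression and p53 cko. A p53 allele or construct is thus named for all groups, but its kind differs, DN in AG and cko in the tumour groups. The kind of p53 change, strain, the Nf1 shRNA, Foxr2 and the origin of the cells all distinguish AG from both tumour groups. They cannot be told apart. No source used here says which cells the p53 or Foxr2 changes were directed to, or whether replicates were separate animals. The p-values therefore measure only the spread between these libraries, and that spread may be technical.

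A voltage-gated sodium or calcium channel is built around a large pore-forming alpha1 protein, encoded by the Scn…a or Cacna1 genes, that opens when the membrane depolarizes. Smaller subunits set its trafficking and gating: beta subunits for sodium channels, and intracellular beta (Cacnb) and extracellular alpha2delta (Cacna2d) subunits for calcium channels. The Cacng family was named after Cacng1, the gamma subunit of the skeletal muscle calcium channel. Most of its members in brain (Cacng2, Cacng3, Cacng4, Cacng5, Cacng7 and Cacng8) are instead transmembrane AMPA receptor regulatory proteins, which bind glutamate receptors. Some of them carry these receptors to the membrane and slow their closing, but not all do so alike.

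Promoter sequences are shown for Cacng7, the member with the highest level per kilobase, its neighbour Cacng8, and Cacna1e, the tested calcium channel pore gene that differed between AG and the tumour groups. They are from RefSeq on GRCm38.p6, 5′ to 3′ on the gene's strand, from 250 bases before to 50 bases after the start site. They lie at chr7:3332575-3332874 on the plus strand for Cacng7, chr7:3393792-3394091 on the plus strand for Cacng8 and chr1:154725871-154726170 on the minus strand for Cacna1e. Cacng4 is named only.
Cacng7: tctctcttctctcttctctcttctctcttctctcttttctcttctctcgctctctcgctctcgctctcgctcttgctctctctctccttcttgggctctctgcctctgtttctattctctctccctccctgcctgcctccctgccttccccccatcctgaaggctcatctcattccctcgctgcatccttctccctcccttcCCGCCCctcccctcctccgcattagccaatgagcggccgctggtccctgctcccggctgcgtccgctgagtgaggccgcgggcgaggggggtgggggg
Cacng8: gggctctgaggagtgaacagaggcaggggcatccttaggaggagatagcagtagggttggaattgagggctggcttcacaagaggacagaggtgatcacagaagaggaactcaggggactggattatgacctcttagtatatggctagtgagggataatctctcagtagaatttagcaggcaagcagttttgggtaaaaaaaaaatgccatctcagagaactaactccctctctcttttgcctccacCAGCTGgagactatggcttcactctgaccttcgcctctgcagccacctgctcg
Cacna1e: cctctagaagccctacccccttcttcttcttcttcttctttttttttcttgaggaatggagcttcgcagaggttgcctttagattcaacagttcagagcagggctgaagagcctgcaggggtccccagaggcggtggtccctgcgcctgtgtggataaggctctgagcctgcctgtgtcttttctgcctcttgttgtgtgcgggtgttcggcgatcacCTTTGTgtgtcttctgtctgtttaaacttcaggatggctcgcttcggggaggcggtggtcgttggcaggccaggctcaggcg
Capitals mark matches, on either strand, to GGGCGG (a GC box), CAGCTG or CAGATG (E-boxes), TGTTTAC (forkhead), ACAAAG (SOX) or TTCAGCACC (the left part of the RE1 element bound by REST). The Cacng7 promoter held 1 GC box, on the reverse strand, beginning at base -48 from the start site. The Cacng8 promoter held 1 E-box CAGCTG, which reads the same on both strands, at base -3. The Cacna1e promoter held 1 SOX match, on the reverse strand, at base -32. Among 32851 mouse promoters of this length, 35.7% held GGGCGG, 16.3% CAGCTG, 17.2% CAGATG, 3.65% TGTTTAC, 18.7% ACAAAG and 0.371% TTCAGCACC. Cacng7 had 15 CpG dinucleotides in this window, Cacna1e 11 and Cacng8 2, beside a median of 7 over all promoters. The matches describe letters only.

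Values are normalized reads, that is, reads divided by a size factor per library. The table held 11300273 to 19868282 reads per library. Replicates agreed more closely in AG (median SD over genes 0.116 on the log2 scale) than in BS (0.466) or OB (0.483). Among the channel genes, OB_257 was the lowest OB library for 7 of the 8 tested ones. BS_287 was the lowest BS library for 5 and the highest for 2, and AG_3 was likewise the lowest AG library for 5. Results are given without OB_257 and BS_287 where that changes a call. Because their places were read from the channel values themselves, calls gained without them are not separate support. Foxr2 checked the labels, with at most 0.986 normalized reads in AG and 4505 to 12567 in the tumour libraries, while Nf1, the target named for the AG shRNA, was 1334 to 1588 in AG and 4184 to 8620 in the tumour libraries. Genes with several RefSeq transcripts had low values throughout the table: the median was 258.8 for genes with 1 transcript, 16.1 with 2 and 11.4 with 3 or more. Among the channel genes 7 of the 15 with 1 transcript were tested, against 1 of the 8 with more (Cacna1c). Low values of genes with several transcripts, such as Cacna1d, Cacna1h, Cacnb2 or Scn8a, are therefore not read as low expression. Transcript numbers of the other gene lists, except the astrocyte markers, are not given here, so low values there may share this limit.

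In BS against AG, 3 of the 8 tested channel genes were higher (Cacng4, Cacng7 and Cacna1e) and 0 were lower at a limma adjusted p under 0.05, while 15.6% of all tested genes were called higher and 19.5% lower. In OB against AG, 2 were higher (Cacng4 and Cacna1e) and 0 lower, while 16% of all tested genes were called higher and 19% lower. Cacng4 and Cacna1e reached 10 normalized reads only in tumour libraries, so that they entered the test through the groups in which they were high. The median log2 change of the 8 genes was 0.74 in BS, beside -0.03 for all tested genes, and -0.23 in OB, beside -0.01. With 1 library left out at a time it ran from 0.25 (without BS_296) to 1.87 (without BS_287) in BS, and from -0.92 (without OB_287) to 0.94 (without OB_257) in OB. At an unadjusted p under 0.05, 4 of 8 passed in each, near the share of all tested genes (45.4% in BS and 45.5% in OB), the additional ones being Cacng8 (higher) in BS and Cacng7 (higher) and Cacna1c (lower) in OB. edgeR and DESeq2, on recovered reads, each called 4 in BS, with Cacng8 added, and 2 in OB, and none of these was lower. Of all 10576 tested genes, edgeR called 3679 in BS and 3724 in OB, and DESeq2 4270 and 4281. Both comparisons share the 3 AG libraries. The ranges of the groups did not overlap for 4 of 8 genes in BS against AG, where 58.4% of all tested genes did not overlap, and for 4 of 8 in OB against AG, where it was 58.3%.

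**Figure D1:**
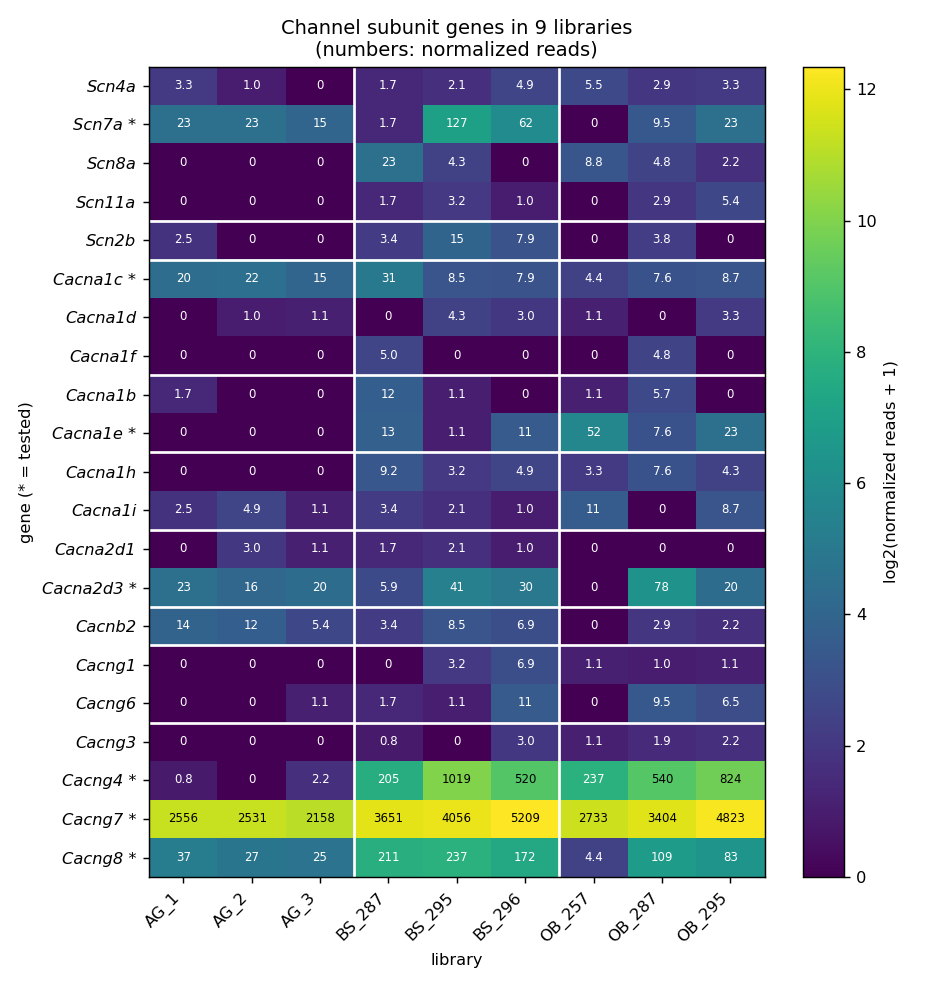
Normalized reads of 21 channel genes (rows, grouped by role; an asterisk marks the tested genes) in the 9 libraries (columns). Colour gives log2(normalized reads + 1) and the number in each cell the normalized reads; Cacng7 is at least 2158 in every library, while Cacng4 is at most 2.2 in AG and at least 204.6 in the tumour libraries.

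Among the AMPA receptor regulatory proteins, Cacng4 was nearly undetected in astroglia and abundant in both tumour groups. It had 0.834, 0 and 2.18 normalized reads in AG, 204.6, 1019 and 520.2 in BS_287, BS_295 and BS_296, and 236.5, 539.6 and 823.8 in OB_257, OB_287 and OB_295. All 6 tumour libraries lay far above all 3 AG libraries, and the ranges of BS and OB overlapped. With 3 reads in AG in all, against 1727 in BS and 1539 in OB, the ratio of BS to AG was 573.4 (exact 95% counting interval 195.9 to 2783) and that of OB to AG 558.8 (190.8 to 2713). On the log2(value + 1) scale the change was 8.05 ± 0.72 (SE) in BS and 8.04 ± 0.72 in OB (limma adjusted p 7.5e-05 and 7.9e-05). Between the tumour groups Cacng4 differed by -0.02 ± 0.72 (OB minus BS, limma adjusted p 1), and the size of the SE limits what could be seen.

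Cacng7, a regulatory protein known from cerebellum, was well detected in all 3 groups. Its level was 2556, 2531 and 2158 in AG, 3651, 4056 and 5209 in BS, and 2733, 3404 and 4823 in OB. Every tumour library was above every AG library, with OB_257 closest to AG. The rise in BS was 0.82 ± 0.23 on the log2 scale (1.78-fold between means, limma adjusted p 0.0248). In OB the change was 0.56 ± 0.23 (1.51-fold, limma adjusted p 0.0921) and did not pass. The call in BS was lost when any AG library or BS_296 was left out (limma adjusted p 0.0693, 0.0714, 0.0998 and 0.0762), and without OB_257 the OB change passed (0.75, limma adjusted p 0.0311). The calls of all genes in BS also fell, from 3712 to 2001 to 2035 without an AG library and to 3061 without BS_296.

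Cacng8, a regulatory protein known for its high level in hippocampus, was 36.7, 26.6 and 25.05 in AG and 211.3, 236.8 and 172.4 in BS. In OB it was 4.42, 109.4 and 82.6. BS lay above AG without overlap, whereas OB_257 was below AG and the other OB libraries above it. The change in BS was 2.78 ± 1.00 on the log2 scale (7.02-fold between means, limma adjusted p 0.0603), and in OB 0.29 ± 1.00 (limma adjusted p 0.846); neither passed. With OB_257 left out both passed, at 2.78 in BS (limma adjusted p 0.000231) and 1.68 in OB (limma adjusted p 0.00562). OB_257 is an OB library, and it enters the BS test through the spread that the 3 groups share. Over 22 alternatives Cacng8 passed in BS in 9, with adjusted p from 0.000231 to 0.331.

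Cacng3, a regulatory protein of cortical neurons, had 0 reads in AG and at most 2.96 normalized reads in any tumour library. Per kilobase of transcript, where levels can be set beside each other, the mean level in AG was 1092 for Cacng7, 21.3 for Cacng8 and 0.287 for Cacng4. In BS it was 1946 for Cacng7, 149.9 for Cacng8 and 166.1 for Cacng4, and in OB 1652, 47.5 and 152.4. Cacng7 had the highest mean level per kilobase in each group among the 15 channel genes with a length. The mean of Cacng4 was below that of Cacng8 in AG and above it in OB. In BS their order rested on BS_295: without it the means per kilobase were 103.5 for Cacng4 and 139.0 for Cacng8.

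In the RefSeq gene order, Cacng7, Cacng8 and Cacng6 follow one another on chromosome 7, and Cacng1, Cacng4 and Cacng5 on chromosome 11. Cacng6, which encodes a gamma subunit of muscle type, had 1 read in AG and 14 in BS, a ratio of 13.9 (exact 95% counting interval 2.12 to 589.6), and 16 in OB, a ratio of 17.4 (2.71 to 730.8). In BS 3 reads were left without BS_296, and with no filter on low values Cacng6 did not pass (limma adjusted p 0.246 in BS and 0.216 in OB). Cacng1, next to Cacng4, had 0 reads in AG, at most 6.9 normalized reads in BS and at most 1.11 in OB. Per kilobase the mean of Cacng1 in BS was 2.69, beside 166.1 for its neighbour Cacng4. Neither Cacng6 nor Cacng1 was tested.

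The receptor that these proteins bind was read through a list of 8 AMPA receptor genes, of which 5 had rows and 4, the subunits Gria1 to Gria4, were tested. In both tumour groups 2 were higher and 2 lower than in AG by limma. Of all tested genes, 15.6% were called higher and 19.5% lower in BS, and 16% and 19% in OB. Gria2, the subunit that makes the receptor impermeable to calcium when edited, had 0 reads in AG, 52.0, 260.3 and 105.4 in BS, and 46.4, 298.8 and 452.1 in OB (limma adjusted p 0.000545 and 0.000317). Gria4 was at most 1.67 in AG, 25.2 to 231.5 in BS, and from 34.3 to 134.2 in OB (limma adjusted p 0.00116 and 0.00122). Gria1 went the other way, with 22.5, 34.5 and 19.6 in AG and 0 reads in all tumour libraries. Gria3 was 26.1 to 57.2 in AG and at most 4.27 in the tumour libraries. Gria1 and Gria3 are named as the remaining members of the tested 4.

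**Figure D2:**
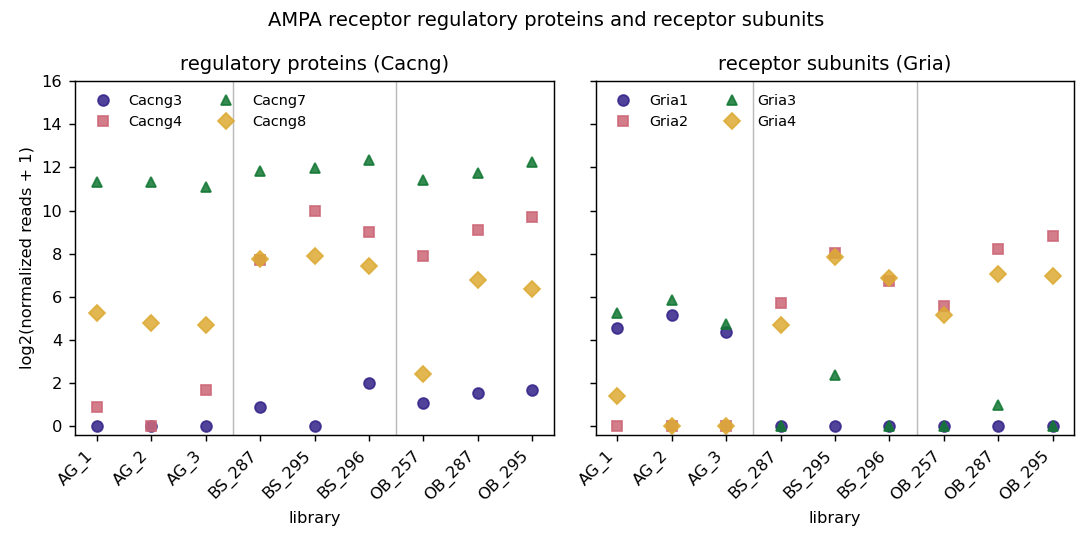
AMPA receptor regulatory proteins (left) and receptor subunits (right), as log2(normalized reads + 1) on the vertical axis, in the 9 libraries; each point is 1 gene in 1 library. Cacng4, Gria2 and Gria4 are at or near 0 in AG and high in every tumour library, Gria1 and Gria3 the reverse, and Cacng7 stays at the top.

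Markers of other cells also differed between AG and the tumour groups. The summed level of 6 oligodendrocyte precursor markers was 17.4 to 20.0 in AG, 33881 to 80010 in BS, and from 40344 to 72013 in OB. By limma 3 of 6 were higher in BS and 5 of 6 in OB, Pdgfra passed in neither, and Olig2 was at 0 reads in AG. Of all tested genes, 15.6% were called higher and 19.5% lower in BS, and 16% and 19% in OB. Olig1 and Olig2 reached 10 normalized reads only in tumour libraries. In BS the summed level of the precursor markers was mostly Olig1 and Olig2. In BS_287 these were 18919 and 13400, while Pdgfra was 2.52, Gpr17 0 and Sox10 3.35. Of the 10 tested neuron markers, 6 were higher and 1 lower in BS, and 5 higher and 1 lower in OB. The lower one was Gad2, at 50.9 to 59.1 in AG and at most 31.5 in the tumour libraries (limma adjusted p 0.0338 in BS and 0.0182 in OB). The summed level of the neuron markers, with the untested ones, was 1123 to 1162 in AG, 5147 to 6968 in BS, and from 5353 to 10089 in OB. Rbfox3, Snap25, Nefl and Gad1 were at 0 reads in AG, but Rbfox3 was at most 13.4 and Snap25 at most 6.71 in any tumour library. Of the 7 astrocyte markers with a row, Gja1 was 4961 to 5396, Slc1a3 752.9 to 855.5 and S100b 25.01 to 27.2 in the AG libraries. In the tumour groups Gja1 was at most 2879 in BS and 662.4 in OB. Slc1a3 was 11447 to 25665 in BS and 88.4 to 23699 in OB, and S100b 5.87 to 639.4 and 179.9 to 6616. Gfap, Aqp4, Aldh1l1 and Aldoc were at most 5.91 in AG, but each has 2 or more RefSeq transcripts, so that these values are not read as low expression. Aldoc was higher in both tumour groups (limma adjusted p 0.00481 in BS and 0.00181 in OB). The part of these markers in the channel results was not tested. In bulk RNA, fewer cells of a type and less RNA per cell cannot be told apart.

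Of the calcium channel pores, Cacna1e (the R-type channel CaV2.3) was absent from the reads of AG. It had 0 reads in all 3 AG libraries, 12.6, 1.07 and 10.8 normalized reads in BS, and 51.9, 7.61 and 22.8 in OB. OB_257 was highest, the reverse of its place for the other tested genes, and BS_295 was near 0. Against a floor of 3 reads per library, the BS mean was at least 2.81-fold higher and the OB mean at least 9.44-fold higher. The fitted change was 2.79 ± 0.85 in BS (limma adjusted p 0.0336) and 4.47 ± 0.85 in OB (limma adjusted p 0.00418), and OB minus BS was 1.68 ± 0.85 (limma adjusted p 0.560). The OB call held in all 20 alternatives that kept the gene (adjusted p 5.55e-05 to 0.0231). The BS call failed with a pseudocount of 5 or quantile normalization (limma adjusted p 0.123 and 0.0621) and when any AG library, BS_287 or BS_296 was left out (0.0915 to 0.103). Without an AG library the BS change itself stayed at 2.79, while calls of all genes fell as given for Cacng7.

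Cacna1c, the L-type pore of heart, smooth muscle and brain (CaV1.2), was the only L-type gene tested. It was 20.0, 21.7 and 15.2 in AG, 31.0, 8.53 and 7.88 in BS, and 4.42, 7.61 and 8.69 in OB. BS_287 was the highest library of all and the other 2 BS libraries lay with OB below AG. The log2 change was -0.50 ± 0.55 in BS (limma adjusted p 0.510) and -1.37 ± 0.55 in OB (limma adjusted p 0.0852), and neither passed. Without BS_287 the OB change passed (limma adjusted p 0.0207), and without BS_287 and OB_257 together both did, at -1.10 in BS and -1.11 in OB (limma adjusted p 0.0319 and 0.0314). Smooth muscle and pericyte markers were lower in the tumours for 3 of 4 tested genes and higher for 1 in each comparison, and Acta2 was 52507 to 55942 in AG and at most 69.6 in the tumour libraries. Of all tested genes, 15.6% were called higher and 19.5% lower in BS, and 16% and 19% in OB. The part of these markers in the Cacna1c values was not tested.

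The other pores were too low to test. Cacna1h, a T-type pore that opens near the resting potential, had 0 reads in AG, 3.2 to 9.23 normalized reads in BS, and from 3.32 to 7.61 in OB. BS was at least 1.99-fold higher than AG and OB at least 1.75-fold higher, and with no filter on low values it passed in both (limma adjusted p 0.00341 and 0.00416). The T-type pore Cacna1i overlapped between groups, at 1.09 to 4.93 in AG, 0.985 to 3.35 in BS, and from 0 to 11.1 in OB. The L-type pores Cacna1d and Cacna1f stayed at or below 5.03 in every library. The N-type pore Cacna1b, which drives transmitter release, reached 11.7 in BS_287 and at most 5.71 elsewhere.

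Of the accessory calcium channel subunits, Cacna2d3 was tested and did not pass in any comparison. This alpha2delta subunit was 22.5, 15.8 and 19.6 in AG, 5.87, 40.5 and 29.6 in BS and 0, 78.0 and 19.6 in OB. The tumour libraries lay on both sides of AG, which covered a narrow range. The log2 change was 0.03 ± 1.43 in BS and -0.77 ± 1.43 in OB (limma adjusted p 0.987 and 0.711), although the OB mean was 1.69-fold above that of AG. Without OB_257 the OB change was 1.00 (limma adjusted p 0.403). Cacna2d1, the alpha2delta subunit bound by gabapentin, was at most 2.96 and had 0 reads in OB.

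Cacnb2 was the only intracellular beta subunit with a row; these subunits bring the pore to the membrane. It was 14.2, 11.8 and 5.44 in AG, 3.35, 8.53 and 6.90 in BS and 0, 2.85 and 2.17 in OB. OB lay below AG without overlap and BS overlapped AG. With no filter on low values its log2 change in OB was -2.23 ± 0.64 (limma adjusted p 0.0298) and in BS -0.65 ± 0.64 (limma adjusted p 0.494).

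**Figure D3:**
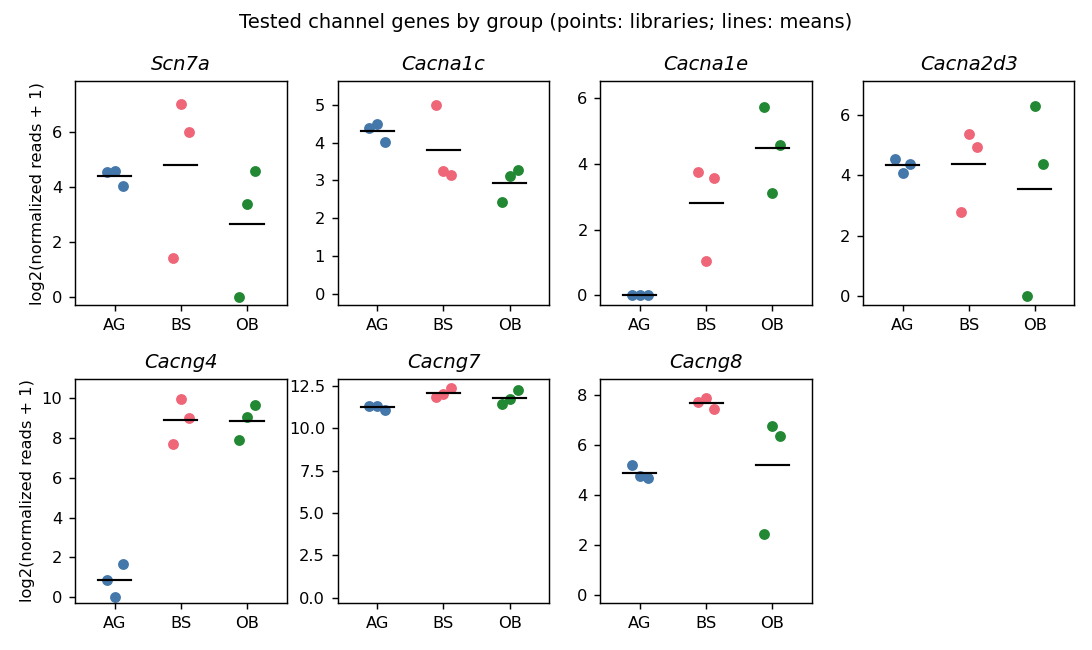
The tested channel genes (7 shown) by group; each point is 1 library, the bar is the group mean, and the vertical axes give log2(normalized reads + 1) on separate scales. AG libraries lie close together for each gene except Cacng4, whose 3 libraries hold 3 reads in all, while tumour libraries spread widely for Scn7a, Cacna2d3 and Cacng8.

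Of the sodium channel genes, Scn7a was tested and did not pass in any comparison. It encodes Nax, a channel relative of glia that senses sodium concentration more than voltage. It was 22.5, 22.7 and 15.2 in AG, 1.68, 126.9 and 62.1 in BS and 0, 9.52 and 22.8 in OB. BS_287 and OB_257 were again the lowest of their groups, while BS_295 and BS_296 exceeded all AG libraries. The log2 change was 0.42 ± 1.54 in BS and -1.72 ± 1.54 in OB (limma adjusted p 0.855 and 0.418). With BS_287 and OB_257 left out together, the BS change passed at 2.11 (limma adjusted p 0.0125).

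The neuronal pore Scn8a, found at nodes of Ranvier, had 0 reads in AG. Its level was 22.6, 4.27 and 0 in BS, and 8.84, 4.76 and 2.17 in OB. BS was thus at least 3.08-fold higher and OB at least 1.81-fold higher than AG, but without BS_287 the BS mean of 2.13 is under the floor and gives no bound. With no filter it did not pass (limma adjusted p 0.120 and 0.0953). Scn2b, a beta subunit that associates with the pore, had 3 reads in AG and 26 in BS, a ratio of 8.63 (exact 95% counting interval 2.65 to 44.6), and 4 in OB. The AG reads were all in AG_1, and with no filter the change did not pass (limma adjusted p 0.0515 in BS and 0.911 in OB). The skeletal muscle pore Scn4a and the sensory neuron pore Scn11a were at most 5.53 in any library. Skeletal muscle markers were low throughout: 0 of 4 with rows were tested, and their sum was at most 23.7.

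Between the tumour groups no channel gene passed, as 0% of all tested genes did by limma. Of the 8 tested, 7 had a negative OB minus BS change, with a median of -0.83 beside 0.01 for all genes. Without OB_257, 4 of 8 were negative and the median was 0.07. At an unadjusted p under 0.05 there was 1 of 8 channel genes (Cacng8), beside 1019 of all genes (9.64%). edgeR called 0 genes in this comparison and DESeq2 237, of which 0 were channel genes. Ranges did not overlap for 1 of 8, again Cacng8, beside 9.99% of all genes. The Cacng8 change was -2.48 ± 1.00 (OB minus BS, limma adjusted p 0.487).

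**Figure D4:**
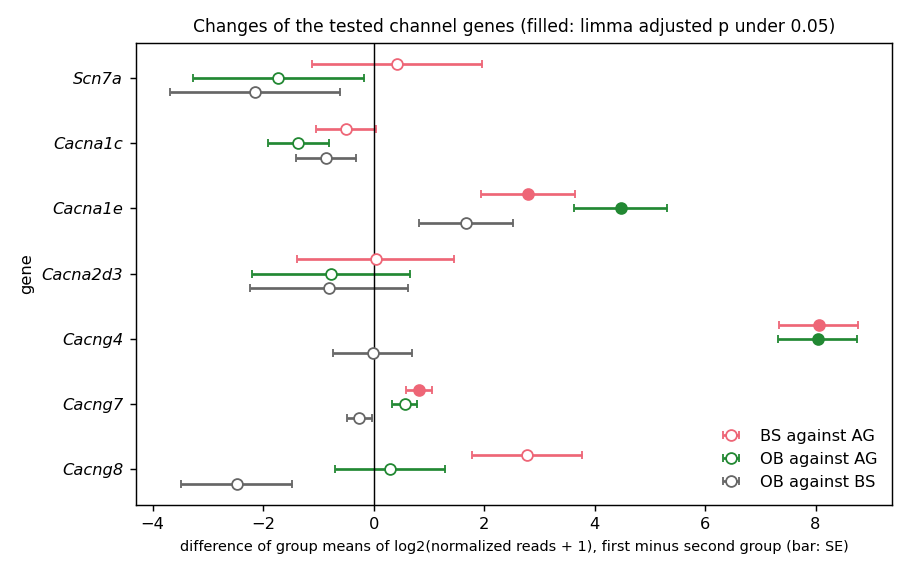
Differences of group means on the log2(normalized reads + 1) scale (horizontal axis; bars give the SE, filled points a limma adjusted p under 0.05) for the tested channel genes (7 shown). The Cacng4 changes against AG stand near 8, Cacna1e and, in BS, Cacng7 are also filled, and no OB against BS point is.

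Counts of channel genes called moved with the libraries left out. Of the 23 channel genes, 9 were at 0 in OB_257, against 4 in OB_287 and 5 in OB_295. The sum over channel genes other than Cacng7 was 151.4 to 201.8 in AG, 561.1, 1595 and 1280 in BS, and 333.8, 890.7 and 1198 in OB. Of these sums Cacng4 alone held 204.6, 1019 and 520.2 in BS and 236.5, 539.6 and 823.8 in OB. In AG it held at most 2.18. The sums therefore do not show a rise across the channel genes. Without OB_257, 4 channel genes passed in OB against AG (Cacng4, Cacna1e, Cacng7 and Cacng8) and 4 in BS against AG. Of all 10449 genes tested in that setting, 3719 passed in OB and 4344 in BS. Without both OB_257 and BS_287, 7 channel genes were tested, as Cacna1e was then below the filter. In BS 5 passed (Cacng4, Cacng7, Cacng8 and Scn7a higher, Cacna1c lower) and in OB 4 (the same without Scn7a). Of all 10258 genes then tested, 4680 passed in BS and 4658 in OB. With any 1 AG library left out, or without BS_296, Cacng4 was the only channel gene that passed in BS. Cacng4 passed against AG in both tumour groups in all 22 alternatives, with adjusted p up to 0.000999 in BS and 0.00104 in OB.

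Genes whose products bind these channels were called in both directions, as were genes of the whole table. Of 8 tested sodium channel partners, 2 were higher and 2 lower in BS, and 3 higher and 2 lower in OB. Of all tested genes, 15.6% were called higher and 19.5% lower in BS, and 16% and 19% in OB. The counts of this and the following lists stand beside these shares and are not read as results about a list. Cntn1, an adhesion protein of axons that binds sodium channels, had 0 reads in AG, 35.2 to 188.8 in BS, and from 108.5 to 664.0 in OB (limma adjusted p 0.00034 and 0.000102). It thus entered the test through the tumour libraries, in which it was high. Fgf13, an intracellular fibroblast growth factor homologue that binds the channel's tail, fell by 4.44 in BS (limma adjusted p 0.00638) and fell by 5.83 in OB (limma adjusted p 0.00156), from 88.2 to 145.1 normalized reads in AG to at most 13.4 in any tumour library.

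Of 8 tested calcium channel partners, 3 were higher and 2 lower in each tumour group. Rem2, a small GTPase that inhibits high-voltage-activated channels, rose by 5.66 (BS) and 5.45 (OB) on the log2 scale (limma adjusted p 0.000814 and 0.000985). Bsn, the presynaptic scaffold Bassoon, rose by 4.41 and 4.68 (limma adjusted p 0.000937 and 0.00069). Rem2 and Bsn reached 10 normalized reads only in tumour libraries and entered the test through them. Ahnak, a large scaffold that binds the beta subunit, fell by 10.23 in BS and fell by 9.84 in OB (limma adjusted p 0.000137 and 0.000168), from 66664 to 74189 normalized reads in AG to at most 416.8 in the tumour libraries.

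Among 7 tested relatives of these channels, 2 were higher and 1 lower in each tumour group. The relatives that rose were Unc79 and Unc80, which are auxiliary proteins of the sodium leak channel Nalcn. Unc79 had 0 reads in AG, 66.3 to 1010 in BS, and from 185.7 to 1347 in OB, and Unc80 rose by 6.35 (BS) and 8.57 (OB) on the log2 scale (limma adjusted p 0.000196 and 4.2e-05). The channel gene Nalcn itself fell by 3.47 in BS (limma adjusted p 0.024), where AG held 1771 to 2081 normalized reads and BS 38.6 to 436.5, and its change in OB was -2.75 (limma adjusted p 0.0561).

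Of 13 tested genes of intracellular calcium release, stores and extrusion, 1 was higher and 5 lower in BS, and 2 higher and 5 lower in OB. The IP3 receptor gene Itpr3 fell by 7.90 in BS and fell by 6.60 in OB on the log2 scale (limma adjusted p 4.4e-06 and 1e-05), and the store-operated channel gene Orai2 fell by 2.22 in BS and fell by 2.64 in OB (limma adjusted p 0.000341 and 0.000131). Of 6 tested genes of the REST complex, which represses many neuronal channel genes, 1 was higher and 1 lower in BS, and 2 higher and 2 lower in OB. Rest was 1317 to 1420 in AG, 825.6 to 1159 in BS (log2 change -0.51, limma adjusted p 0.0771) and 644.5 to 895.5 in OB (-0.93, limma adjusted p 0.00696).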

How the data were processed

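RNA sequencing of 9 mouse libraries (AG, BS and OB, 3 each) was used as deposited by the authors, as signal values for 16260 RefSeq transcripts: reads divided by a size factor per library (0.905 to 1.20). The build mm9, HISAT2 2.1.0, DESeq2 1.20.0, bcl2fastq 1.8.4 and featureCounts (Subread 1.6.2) stand, in no stated order, in the submitters' processing notes. The annotation, strand setting and treatment of shared reads were not given in the sources used here. Without stated strand counting, reads of overlapping antisense genes cannot be told apart. Undoing the factor gave whole reads for 100% of values, within 0.05 reads. Transcripts were named from RefSeq (16202) or GENCODE (41). The 17 without a name, with 0.461% of reads, were left out, and values were summed per symbol.

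The main test was limma 3.58.1 (R 4.3.3) on log2(value + 1), 3 group means in 1 fit of 9 libraries, a variance trend, two-sided, Benjamini-Hochberg adjusted over the 10576 genes with 10 normalized reads in at least 3 libraries, threshold 0.05. A log2 change on this scale understates changes of low genes. On the recovered reads, edgeR 4.0.16 called 3679 genes for BS against AG, 3724 for OB against AG and 0 for OB against BS; DESeq2 1.42.0 was also run. Scripts were tested on simulated data. Genes at 0 reads in a group were compared with a floor of 3 reads per library (2.91 normalized in AG, 2.89 in BS, 3.14 in OB), and 1 to 3 reads by an exact 95% interval of the ratio. Floors and intervals cover counting error only.

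The channel genes and all lists were chosen with earlier results of these data known. Every channel gene is accounted for; those called, or alone in their role, are given in full, except 2 that, with some other genes, are not reported here. Of each other list at most 3 called genes with the largest change and a mean of at least 50 in the higher group are named. Marker lists for other cells not described above were also read: of 4 tested astrocyte markers 1 was higher in BS, and 2 higher and 1 lower in OB; of 2 Schwann cell markers 1 was higher in each; of 2 microglia markers 1 was lower in BS; of 2 endothelial markers 1 was lower in each. The shares of all tested genes called are given with the channel gene counts above. Levels per kilobase were computed for genes with 1 RefSeq transcript and 1 row, using the length of the matching GENCODE transcript. Promoters (18 of 23 symbols matched) are on GRCm38.p6, another build than the table's, and served for sequence only. Figures were drawn with matplotlib 3.10.9.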

Additional observations from a re-analysis of the deposited data

How the results depend on the processing

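Results were recomputed under 22 alternatives, 9 of them leaving out 1 library each; where this left a group with 2 libraries they shared the spread of the other groups. Channel genes called in BS against AG numbered 3 of 8 tested, but 5 of 23 with no filter and 5 of 7 without OB_257 and BS_287. With 1 library left out they numbered 1 to 4 of 8. In OB against AG they numbered 2 of 8, but 5 of 23 with no filter, 1 of 4 with a minimum of 50 and 4 of 7 without both. With 1 library left out it was 2 to 4 of 8. Of all 14771 genes fitted with no filter, 4023 were called in BS and 4105 in OB. With a minimum of 50, 3022 of 8042 were called in BS and 2983 in OB. All genes called with 1 library left out were 2001 (without AG_2) to 4344 (without OB_257) in BS against AG, 2086 (without AG_1 or AG_2) to 4123 (without BS_287) in OB against AG, and 0 to 67 (without OB_287) in OB against BS. Leaving out AG_3 gave 2023 and 2098 in the comparisons with AG, and AG_1 2035 in BS. OB against BS also gave 4 with pseudocount 0.5, 6 with pseudocount 5, 3 with quantile normalization, 2 without the variance trend, 237 with DESeq2 and 63 without both libraries. Upper-quartile rescaling moved the median change of all genes to 0.18 in both comparisons with AG and the split to 2135 higher and 1674 lower in BS (main 1652 and 2060) and 2158 and 1675 in OB (main 1687 and 2008); the channel genes called higher stayed called, joined by Cacng8 in BS and Cacng7 in OB. With quantile normalization 1880 were higher and 1720 lower in BS. Of the partner, relative, AMPA receptor, calcium store and REST complex genes called, 0 changed sign under upper-quartile or quantile scaling, edgeR or DESeq2, which gave an adjusted p for 23 of 24 in BS and 27 of 28 in OB (not for Ahnak); Rcor1, Orai3 and Itpr1 lost a call under at least 1 of the rescalings. The cause of these shifts was not tested.

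Changes of sign were seen only in changes that were not called. Cacna2d3 was -0.0388 with quantile normalization in BS against AG. edgeR, DESeq2 and leaving out both libraries gave Cacna2d3 0.80, 0.77 and 1.00 in OB against AG and 0.37, 0.37 and 0.18 in OB against BS. Ranges with 1 library left out were -0.47 to 0.83 for Cacna2d3 in BS against AG, -2.15 to 1.00 for Cacna2d3 in OB against AG, -2.18 to 0.97 for Cacna2d3 in OB against BS, -0.62 to 0.53 for Cacng4 in OB against BS, -0.50 to 1.68 for Cacng8 in OB against AG and -0.68 to 2.11 for Scn7a in BS against AG.

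BS_287 and OB_287 share a number, as do BS_295 and OB_295, whose meaning is not labelled. Deviations of same-numbered libraries correlated at 0.069 and 0.299, over 2 pairs only, so they were not taken as pairs. With the number as a replicate block, 131 genes were called in OB against BS, Cacng7 lost its call in BS (limma adjusted p 0.0760), Cacna1c gained one in OB (limma adjusted p 0.0343), and log2 changes became -1.46 for Cacna2d3 and -0.32 for Scn7a in BS against AG and -1.21 for Cacng8 in OB against AG.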
